A study of Homo sapiens with 5 samples.

Results

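The mRNAs of serum response factor, encoded by *SRF*, and of its cofactors were followed in TF-1 cells with and without a knockout of *MTSS1*. The group was set by name and consists of 6 genes of the 27328 in the count table: *SRF*, the myocardin-related transcription factors *MRTFA* and *MRTFB*, and the ternary complex factors *ELK1*, *ELK3*, and *ELK4*. It was drawn up because *SRF* stood out in the knockout to control contrast of these same 5 libraries, so the changes of the 6 genes are given as a description, without a test. All 6 genes passed the filter on low counts, which does not ask for counts in every pool. A minimum of 10 counts in every library removed *ELK1*, which had 10 and 5 counts in the control pools.

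TF-1 is a human cell line from an acute myeloid leukemia. All cells, controls included, had been transduced with a lentivirus that carried *Cas9*, *GFP*, and an sgRNA. In the 2 control pools (sgCtrl_1 and sgCtrl_2) the sgRNA was directed against *Renilla luciferase*, a gene these cells do not have, and in the 3 knockout pools (sgMTSS1_1, sgMTSS1_2, and sgMTSS1_3) a different sgRNA against *MTSS1* was used for each pool. A pool consisted of 4 single-cell clones, those of the knockout having been selected by immunoblot, so clonal differences are averaged over few clones. The libraries were made by a 3′ method in which a transcript gives 1 tag whatever its length. Levels of different genes are therefore given as CPM, counts scaled to the TMM-adjusted library total, and not per length. Values are listed in the order sgCtrl_1 and sgCtrl_2, then sgMTSS1_1, sgMTSS1_2, and sgMTSS1_3.

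SRF is a MADS-box protein that binds DNA as a dimer at the CArG box, a run of A and T framed by CC and GG. On its own it activates weakly, and a pair of cofactor families compete for it. The myocardin-related factors are held in the cytoplasm by monomeric actin and enter the nucleus when actin polymerizes, where they turn on genes of the cytoskeleton. The ternary complex factors are ETS proteins that are phosphorylated by ERK after growth factor or cytokine stimulation and drive immediate early genes. SRF is needed in hematopoiesis for megakaryocyte maturation and for adhesion and migration of myeloid cells.

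The *SRF* gene itself carries CArG boxes. Its promoter is shown because it ties the most changed of the 6 genes to the DNA element that its own product binds. The RefSeq window from 250 bases before to 50 bases after the start lies on the plus strand at chr6:43171019-43171318 (GRCh38.p14), and capitals mark the CArG boxes, which begin 30 and 10 bases before the start.
SRF promoter: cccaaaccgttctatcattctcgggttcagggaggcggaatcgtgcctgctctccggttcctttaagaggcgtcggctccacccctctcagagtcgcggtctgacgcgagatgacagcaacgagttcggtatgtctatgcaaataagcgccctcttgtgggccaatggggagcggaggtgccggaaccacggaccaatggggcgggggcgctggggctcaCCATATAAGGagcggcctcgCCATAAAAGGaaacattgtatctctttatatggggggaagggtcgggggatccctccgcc
A CArG box was found in 454 of 35116 such RefSeq windows (1.29%), and at least 2 boxes in 11 (0.0313%). The box reads as a CArG box on both strands. None of the windows of *MRTFA*, *MRTFB*, *ELK1*, *ELK3*, or *ELK4* held one. The ETS motif CCGGAAGT, searched on both strands and present in 4.14% of all windows, was found in that of *ELK4* and in no window of the other 5 genes. A match is a description of these letters and does not show that a factor binds there.

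The libraries differed in other respects that ran with the groups. Total counts were 2849979 and 3408827 for sgCtrl but between 5442639 and 8854899 in the knockout pools. Ribosomal protein genes took 7.55% and 9.30% of the counts in the control pools against 11.9% to 17.7% in the knockout pools, and mitochondrially encoded genes 13.9% and 8.63% against 6.71% to 7.44%. With all libraries thinned to the smallest total, the log2-fold change between knockout and control pools was 4.17 for *SRF* and 3.72 for *ELK1*. The part of the other differences in the results below was not tested. In the libraries as sequenced, depth and condition cannot be told apart. *MTSS1* mRNA was at 204 and 87.9 CPM in sgCtrl against 104, 139, and 49.9 CPM in sgMTSS1, so the groups overlapped, and the mRNA does not check the labels. All 9 markers of TF-1 cells were detected, among them *CD34* (112 to 345 CPM), *CD33* (103 to 138 CPM), and *GATA1* (56.4 to 110 CPM). Markers of fibroblasts and smooth muscle, cells rich in SRF targets, summed to 5.32 and 20.3 CPM in control and 8.30 to 9.47 CPM in knockout pools, most of it *MYH11* and *DES*, while *COL1A1*, *COL1A2*, *DCN*, and *LUM* lay between 0 and 0.696 CPM. Those of B and T cells summed to 1.56 and 10.4 CPM in control and 3.61 to 7.31 CPM in knockout pools. In bulk RNA, fewer cells with a transcript and less of it per cell cannot be told apart.

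*SRF* (ENSG00000112658) lies on the plus strand of chromosome 6 from 43171269 to 43181506 of GRCh38, and no other annotated gene overlaps it. Its level was 21.6 CPM in sgCtrl_1 and 17.9 CPM in sgCtrl_2, from 69 and 60 counts. In the knockout pools it was 278 CPM (sgMTSS1_1), 289 CPM (sgMTSS1_2), and 445 CPM (sgMTSS1_3), from 2146, 1603, and 2555 counts. Both control pools were thus close to each other, and each of the 3 knockout pools was far above them. The means were 19.7 ± 2.61 CPM (SD, n = 2) and 337 ± 92.9 CPM (SD, n = 3), a log2-fold change of 4.09 with a standard error of 0.40, or 17.1-fold. By mean level, *SRF* moved from percentile 56.7 of the 14391 tested genes in control to percentile 96.7 in knockout pools. This was the 74th highest log2-fold change of all tested genes. With any 1 pool left out, the log2-fold change lay between 3.89 and 4.25.

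*ELK1* (ENSG00000126767; chromosome X, 47635521 to 47650604, minus strand) encodes the founding ternary complex factor. It was the least abundant of the 6 mRNAs in control pools, with 3.13 CPM in sgCtrl_1 and 1.49 CPM in sgCtrl_2, which rest on 10 and 5 counts. The knockout pools had 37.6 CPM (sgMTSS1_1), 20.6 CPM (sgMTSS1_2), and 24.9 CPM (sgMTSS1_3), from 290, 114, and 143 counts. All knockout pools were several-fold above both control pools, with the highest level in sgMTSS1_1. That pool also had the highest total counts and the largest share of ribosomal protein counts, and a link to either was not tested. The log2-fold change was 3.58 (standard error 0.50) and had rank 122 among all tested genes. Leaving out sgCtrl_1 gave 4.21 and leaving out sgCtrl_2 gave 3.17, the extremes for this gene. GENCODE names 1 pseudogene after *ELK1*, and reads that map equally well to both would have been removed.

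**Figure D1:**
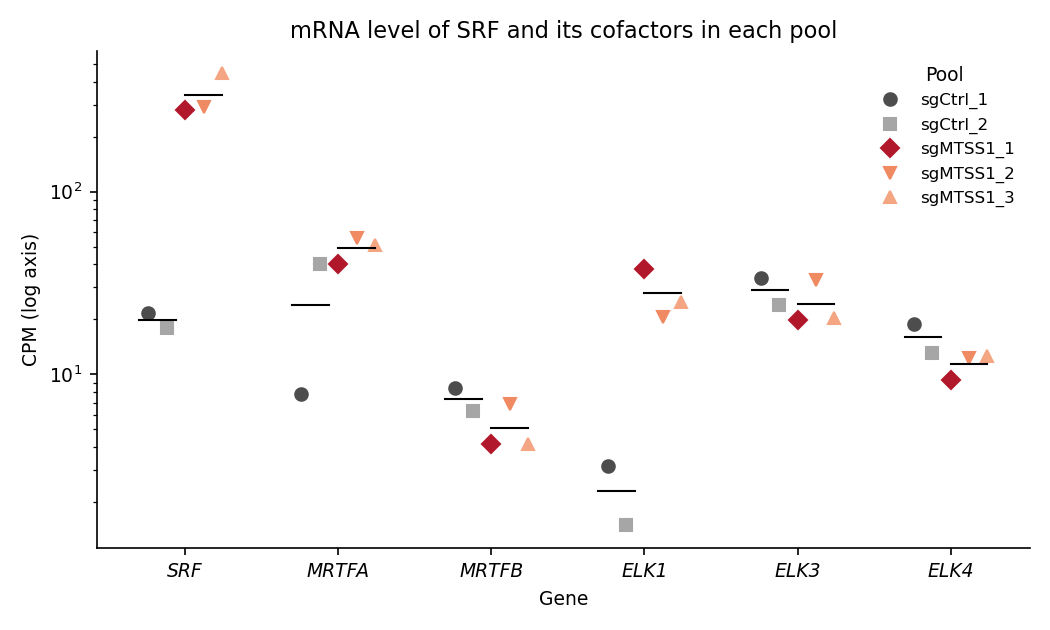
CPM of each of the 6 genes in the 2 control pools (grey) and the 3 knockout pools (red to orange) on a log axis, with a black line at each group mean. *SRF* and *ELK1* are separated between the groups by about a decade, and the control pools of *MRTFA* lie 5.11-fold apart.

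Genes were called where the quasi-likelihood test of edgeR gave a Benjamini-Hochberg adjusted p-value below 0.05 and the log2-fold change exceeded 1 in either direction. This held for 5.18% of tested genes, 4.17% higher and 1.01% lower in the knockout, and 23.3% had an unadjusted p-value below 0.05. *SRF* and *ELK1* were among those called higher, and none of the 6 genes was called lower. In *SRF*, *ELK1*, and *MRTFA* the lowest knockout pool exceeded the higher control pool, which held for 22.2% of tested genes. As the group was picked from this contrast, nothing is read from these counts.

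*MRTFA* (ENSG00000196588; chromosome 22, 40410281 to 40636719, minus strand), the actin-sensing cofactor also known as MKL1, had 7.82 CPM in sgCtrl_1 and 39.9 CPM in sgCtrl_2. It was at 40.1, 55.4, and 51.2 CPM in sgMTSS1. The knockout pools lay close together, the control pools lay 5.11-fold apart, and sgCtrl_2 was level with sgMTSS1_1. The difference between the control pools was larger than that of 97.0% of tested genes. The log2-fold change of 1.03 had a standard error of 0.55 and depended on which control pool was used, at 0.30 without sgCtrl_1 and 2.67 without sgCtrl_2. *SGSM3* and other annotated genes overlap *MRTFA* on the opposite strand, and since the use of strand in counting is not given in the sources used here, its counts are uncertain.

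*MRTFB* (ENSG00000186260; chromosome 16, 14071319 to 14266773, plus strand), the second actin-sensing cofactor, was low in every pool. It had 8.44 and 6.26 CPM in sgCtrl against 4.15, 6.86, and 4.18 CPM in sgMTSS1, from 21 to 38 counts a library. Its log2-fold change was −0.54 (standard error 0.45), with overlapping pools. Annotated genes overlap *MRTFB* on both strands, so its counts are uncertain as well.

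*ELK3*, a ternary complex factor that can repress transcription in resting cells, had 33.8 and 23.8 CPM in sgCtrl against 19.7, 32.7, and 20.4 CPM in sgMTSS1. The pools overlapped. The log2-fold change, −0.25 with a standard error of 0.35, became 0.031 without sgCtrl_1. *ELK4*, also known as SAP-1, had 18.8 and 13.1 CPM in sgCtrl against 9.34, 12.3, and 12.5 CPM in sgMTSS1. All knockout pools of *ELK4* were below both control pools, though only just in sgMTSS1_3, and the log2-fold change was −0.49 (standard error 0.35). The same held for 19.2% of tested genes. *ELK3* (ENSG00000111145) lies on chromosome 12 from 96194375 to 96269824 and *ELK4* (ENSG00000158711) on chromosome 1 from 205597556 to 205632011, and both overlap annotated genes on the opposite strand.

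**Figure D2:**
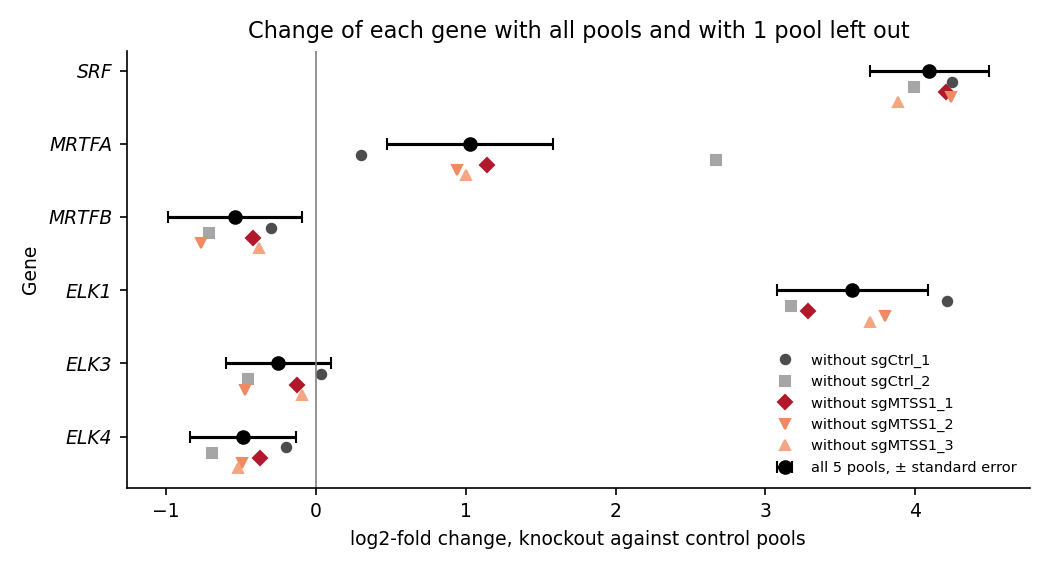
Log2-fold change of each gene between knockout and control pools, with all 5 pools (black, with the standard error) and with each pool left out in turn (coloured symbols). *SRF* stays between 3.89 and 4.25, *MRTFA* moves between 0.30 and 2.67, and *ELK3* crosses 0.

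The 3 ternary complex factors did not move together, and their makeup changed more than their sum. Together they had 55.7 and 38.4 CPM in sgCtrl against 66.7, 65.5, and 57.8 CPM in sgMTSS1, so that sgMTSS1_3 was close to sgCtrl_1. *ELK1* made up 5.62% and 3.88% of this sum in sgCtrl against 56.4%, 31.4%, and 43.1% in sgMTSS1. *ELK3* was the main factor of the family in both control pools, with 60.7% and 62.0%, and in sgMTSS1_2, with 49.9%, while *ELK1* was in sgMTSS1_1 and sgMTSS1_3. Among the myocardin-related factors, *MRTFA* took 48.1% in sgCtrl_1, 86.5% in sgCtrl_2, and 89.0% to 92.5% in the knockout pools. *MYOCD*, the third gene of that family and typical of heart and smooth muscle, was not analysed here.

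**Figure D3:**
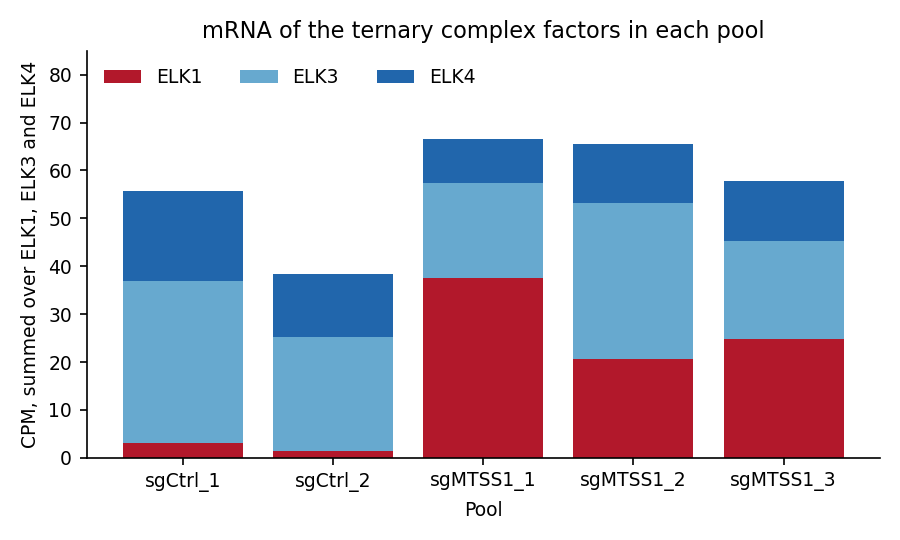
Stacked CPM of *ELK1* (red), *ELK3* (light blue), and *ELK4* (dark blue) in each pool. The *ELK1* part grows from 3.13 and 1.49 CPM in the control pools to between 20.6 and 37.6 CPM in the knockout pools.

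The order of the 6 mRNAs by level differed between the groups. In control pools, *ELK3* (28.8 ± 7.02 CPM, SD, n = 2), *MRTFA* (23.9 ± 22.7), *SRF*, and *ELK4* (15.9 ± 3.99) came first, *MRTFB* (7.35 ± 1.54) was below these by mean, and *ELK1* (2.31 ± 1.16) was last. The control pools of *MRTFA* took in the levels of *ELK3*, *SRF*, and *ELK4* and overlapped those of *MRTFB*, and between *SRF* and *ELK4* the lowest and highest pools overlapped as well. In knockout pools *SRF* was first, followed by *MRTFA* (48.9 ± 7.92 CPM, SD, n = 3), then *ELK1* (27.7 ± 8.86) and *ELK3* (24.2 ± 7.30), whose pools overlapped, then *ELK4* (11.4 ± 1.77) and *MRTFB* (5.06 ± 1.56). The CPM of *SRF* were 0.300 and 0.211 times the summed CPM of its 5 cofactors in sgCtrl, against 2.51, 2.26, and 3.93 times in sgMTSS1.

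The tested genes whose profile over the 5 libraries was nearest to that of *SRF* were *PIM3*, a serine/threonine kinase, *PIGW*, an acyltransferase of GPI anchor synthesis, *KXD1*, a subunit of the BORC complex of lysosome positioning, the small Cajal body RNA *SCARNA9*, and *CDR2L*. Their Euclidean distances from *SRF* on centred log2 CPM were 0.487, 0.621, 0.635, 0.689, and 0.727. *PIM3* had 18.4 and 15.8 CPM in sgCtrl against 181, 246, and 276 CPM in sgMTSS1. Like *SRF*, it was lowest in sgCtrl_2 and highest in sgMTSS1_3, a likeness that the choice by profile brings with it. *ELK1* was 39th in this order and *MRTFA* 1791st, while *MRTFB*, *ELK3*, and *ELK4* were at rank 9228 or beyond. Nearest to *ELK1* were *SEC11A*, a subunit of the signal peptidase, the ubiquitin pseudogene *UBBP1*, *OCIAD1*, *COL9A3*, and the ribosomal protein pseudogene *RPS23P8*, at distances of 0.231 to 0.422. Counts of the pseudogenes are uncertain, since their parent genes are near-identical, and *KXD1* and *COL9A3* were below the level of 3 counts in both control pools. The nearest neighbors of *ELK1* were highest in sgMTSS1_1, as *ELK1* was, which likewise follows from how they were picked.

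None of the genes beside *SRF* on chromosome 6 had a difference of its size. Of 24 genes of the table within 250 kb, 17 were tested, with a median log2-fold change of −0.07, against −0.03 for all tested genes, and 8 were above 0 and 9 below. Only *MRPL2*, a mitochondrial ribosomal protein gene, was called, with means of 16.7 ± 2.45 CPM (SD, n = 2) for sgCtrl against 45.1 ± 3.17 CPM (SD, n = 3) for sgMTSS1 (log2-fold change 1.43, standard error 0.31, adjusted p = 0.0328 from edgeR). This 1 call among 17 genes stands beside 5.18% of all tested genes. *CUL9* starts 678 bases beyond the end of *SRF* on the same strand. It had 14.1 and 36.7 CPM in sgCtrl against 13.4, 16.2, and 18.8 CPM in sgMTSS1, and its groups overlapped (log2-fold change −0.66, adjusted p = 0.388 from edgeR). *PTK7*, a receptor pseudokinase gene on the other side of *SRF*, also had overlapping groups (0.70, adjusted p = 0.359 from edgeR). On the far side of *CUL9*, *DNPH1* had its 3 highest levels in the knockout but did not pass (1.71, adjusted p = 0.0533 from edgeR), and *KLC4*, the remaining tested gene within 100 kb, was at −0.24 (adjusted p = 0.808 from edgeR). Without any 1 of the knockout pools, *MRPL2* was not called either, while calls among all tested genes fell from 745 to between 111 and 347.

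**Figure D4:**
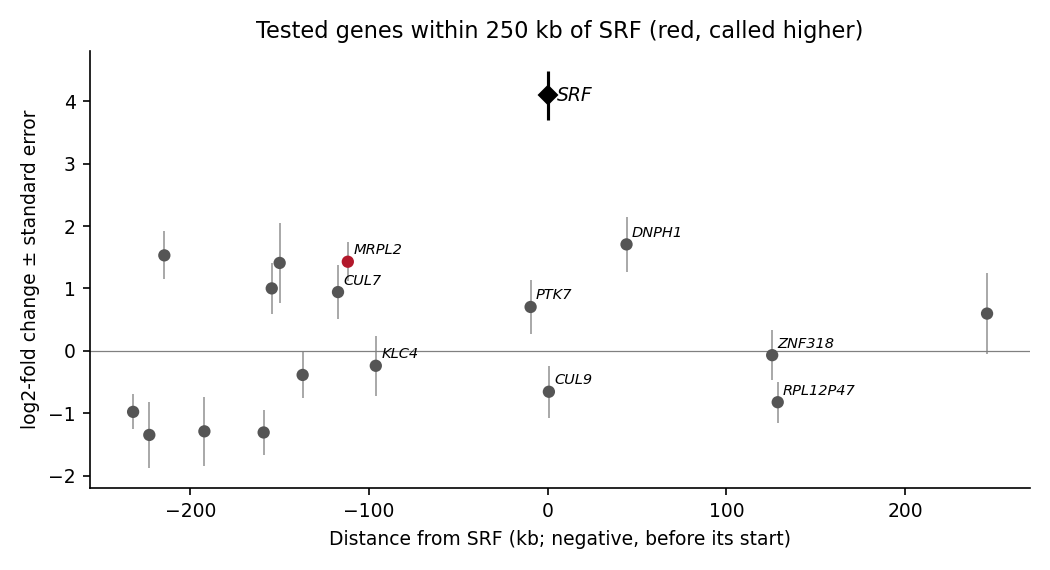
Log2-fold change with standard error of the 17 tested genes within 250 kb of *SRF*, against the distance between gene ends in kb. *SRF* is at 4.09, and no other gene lies above 1.71.

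Genes that are known from other cells as targets of SRF with the myocardin-related factors were taken as a list of 37 genes of the actin cytoskeleton and matrix. Of these, 28 were tested, 3 had counts too low for testing, and 6, *TAGLN* and *ACTA2* among them, were not analysed here. In the knockout, 2 rose (7.14% of those tested, against 4.17% of all tested genes) and 2 fell (7.14% against 1.01%). The list's median log2-fold change was −0.05, against −0.03 for all tested genes. An unadjusted p-value under 0.05 was found for 11 of the 28 (39.3%, against 23.3% of all tested genes), 4 with a higher and 7 with a lower level in the knockout.

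The genes of this list that rose were *ACTG1* and *ZYX*. *ACTG1*, cytoplasmic gamma actin, had 303 and 125 CPM in sgCtrl against 1639, 1479, and 1963 CPM in sgMTSS1 (log2-fold change 2.99, standard error 0.48, adjusted p = 0.0131 from edgeR). *ZYX*, encoding the focal adhesion protein zyxin, had 13.4 and 4.47 CPM in sgCtrl against 38.7, 56.0, and 54.1 CPM in sgMTSS1 (log2-fold change 2.47, standard error 0.47, adjusted p = 0.0221 from edgeR). In both, each knockout pool was above both control pools.

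The genes that fell were *PDLIM7* and *CNN2*, which encode the PDZ-LIM protein enigma and the actin-binding calponin 2. *PDLIM7* had 74.1 and 76.9 CPM in sgCtrl against 20.8, 33.2, and 29.4 CPM in sgMTSS1 (log2-fold change −1.44, standard error 0.31, adjusted p = 0.0310 from edgeR). *CNN2* had 51.9 and 50.1 CPM in sgCtrl against 16.5, 19.9, and 21.6 CPM in sgMTSS1 (log2-fold change −1.40, standard error 0.29, adjusted p = 0.0276 from edgeR). The control pools of both genes lay close together. All 4 calls were lost without sgMTSS1_1, and those of *ZYX*, *PDLIM7*, and *CNN2* also without sgMTSS1_2 or sgMTSS1_3. The highest adjusted p-value was 0.115 (*PDLIM7*, edgeR). Calls among all tested genes fell from 745 to 111 without sgMTSS1_1, 347 without sgMTSS1_2, and 191 without sgMTSS1_3. In these fits the log2-fold changes were 2.93 to 3.14 for *ACTG1* and 2.43 to 2.61 for *ZYX*. They were −1.28 to −1.55 for *PDLIM7* and −1.31 to −1.45 for *CNN2*.

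The most abundant genes of the list showed no common direction. *ACTB*, beta actin, had 719 and 2188 CPM in sgCtrl against 394, 800, and 657 CPM in sgMTSS1, with control pools far apart and overlapping groups (log2-fold change −1.24, adjusted p = 0.169 from edgeR). *ACTB* was thus above *ACTG1* in both control pools and below it in all 3 knockout pools. *TAGLN2* (log2-fold change 0.045, adjusted p = 0.974), *TPM3* (0.15, adjusted p = 0.807), and *FLNA* (−0.65, adjusted p = 0.424), the next most abundant with *ACTG1*, had overlapping groups and did not pass the test in edgeR.

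Immediate early genes known as targets of SRF with the ternary complex factors formed a second list of 16 genes. Only 6 were tested, 6 more had counts too low, and 4, among them *FOS*, were not analysed here. Of the 6 tested, 3 rose (50% of those tested, against 4.17% of all tested genes) and none fell, with a median log2-fold change of 0.81. The share covers the tested genes and not the list as a whole.

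*IER2*, a nuclear immediate early protein gene, had 8.75 and 14.3 CPM in sgCtrl against 45.4, 70.0, and 75.2 CPM in sgMTSS1 (log2-fold change 2.46, standard error 0.39, adjusted p = 0.0131 from edgeR). *JUNB*, encoding an AP-1 subunit, had 10.6 and 4.77 CPM in sgCtrl against 35.3, 30.5, and 40.7 CPM in sgMTSS1 (2.21, standard error 0.41, adjusted p = 0.0215 from edgeR). *MCL1*, the anti-apoptotic BCL2 relative, had 51.6 and 50.4 CPM in sgCtrl against 158, 130, and 183 CPM in sgMTSS1 (1.62, standard error 0.31, adjusted p = 0.0218 from edgeR). In these 3 genes every knockout pool was well above both control pools. *JUNB* and *MCL1* did not pass without sgMTSS1_1 (adjusted p = 0.0781 and 0.0683 from edgeR) or without sgMTSS1_3 (0.0655 and 0.0813). In these fits the log2-fold changes were 2.20 and 2.15 for *JUNB* and 1.61 and 1.54 for *MCL1*. Calls among all tested genes fell from 745 to 111 and 191. *IER2* passed in every alternative that kept both control pools.

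*EGR1*, the classical reporter of ternary complex factor activity, was low, at 1.88 and 2.68 CPM in control and 1.04, 0.361, and 3.31 CPM in knockout pools (log2-fold change −0.55, adjusted p = 0.740 from edgeR). *FOSL1* (−0.77, adjusted p = 0.525 from edgeR) and *BTG2* (0.00124, adjusted p = 0.999 from edgeR) were as low. The smallest level that 3 counts can show was 0.938 and 0.894 CPM in the control pools and 0.389 to 0.542 CPM in the knockout pools.

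**Figure D5:**
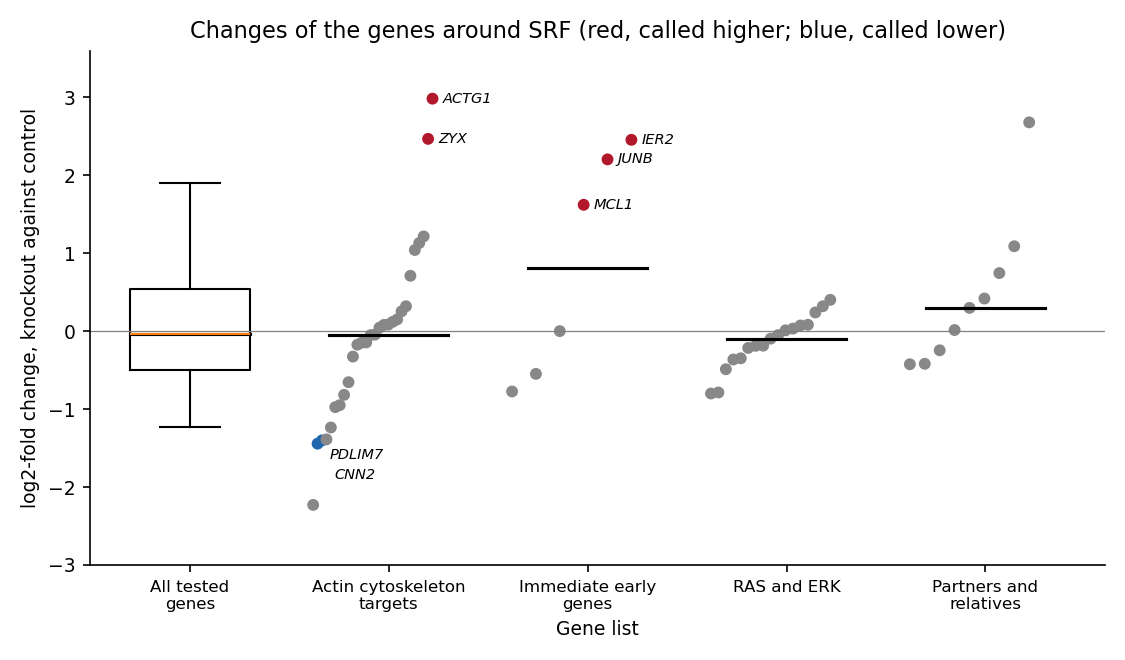
Log2-fold change of each tested gene in the 4 lists, ordered within a list, beside a box with the quartiles and 5 to 95% range of all 14391 tested genes; black lines mark medians. Genes called higher (red) and lower (blue) are named, and lie in the lists of actin targets and immediate early genes.

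On the ERK side, all 17 genes from the adaptor *GRB2* to the RSK kinases were tested. None was called by edgeR, DESeq2, or limma-voom, against 5.18% of all tested genes by edgeR, and 2 of the 17 (11.8%) had an unadjusted p-value under 0.05, against 23.3%. Their log2-fold changes lay between −0.80 and 0.40, with a median of −0.09. The most abundant were *SOS1* (0.034), *RPS6KA1* (−0.095), *GRB2* (−0.79), and *MAP2K2* (−0.35), with adjusted p-values from edgeR of 0.966, 0.903, 0.116, and 0.706.

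Among other partners, inhibitors, and MADS-box relatives of SRF, 9 of 14 genes were tested and none was called by edgeR, against 5.18% of all tested genes, while DESeq2 called 1. An unadjusted p-value under 0.05 was found for 2 of the 9 (22.2%), against 23.3% of all tested genes. *ID3*, whose product can hold ETS and helix-loop-helix factors off DNA, had 4.38 and 1.79 CPM in sgCtrl against 36.2, 11.0, and 11.8 CPM in sgMTSS1 (2.68, standard error 0.69, adjusted p = 0.0545 from edgeR). The most abundant were *MEF2C* (−0.42, adjusted p = 0.438), *ID1* (1.09, adjusted p = 0.153), *MEF2A* (0.015, adjusted p = 0.983), and *ID2* (0.42, adjusted p = 0.683), all from edgeR. *SCAI*, a repressor of the myocardin-related factors, was between 3.76 and 6.56 CPM in all 5 pools (−0.25, adjusted p = 0.785 from edgeR).

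The CArG box was then compared with the calls across the table. A RefSeq window was matched by symbol for 9688 of the 14391 tested genes, and 143 of these had a box in at least 1 window. Of the 143, 9 were called higher (6.29%, against 3.91% of all 9688) and 1 was called lower (0.699% against 0.702%). The split changed with the pools used, as did the calls among all tested genes. For the fits without 1 knockout pool, the comparison is with all tested genes, with or without a window, and *SRF* stayed among the genes with a box. Without sgMTSS1_1, 3 of 135 genes with a box were called higher, against 107 of all 13358 tested genes. Leaving out sgMTSS1_2 gave 6 of 137 (all tested genes, 323 of 13419), and leaving out sgMTSS1_3 gave 4 of 134 (183 of 13303). In these fits 0 genes with a box were called lower, against 4, 24, and 8 of all tested genes. With all pools kept, log2-fold changes for the 143 had a median of −0.03, against −0.02 for all 9688. Genes with a box had 2.14 windows on average and all genes 1.45, so genes with more annotated starts had more chances of a match. Without *SRF*, 8 of 142 were called higher. After *SRF*, the largest rises were those of *DOLPP1*, a dolichyl pyrophosphate phosphatase gene (log2-fold change 3.17), *RPS27A*, a fusion of ubiquitin and a ribosomal protein (3.09), *ACTG1*, and *NPM3*, a nucleoplasmin family gene (2.28), with adjusted p-values from edgeR of 0.00646, 0.0111, 0.0131, and 0.0147. *RPS27A* has processed pseudogenes, so its count is uncertain. *CNN2* was the gene called lower.

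Of the 28 tested actin targets, 27 had a RefSeq window and 8 a box, of which *ACTG1* rose, *CNN2* fell, and 6 did not pass. Of the 6 tested immediate early genes, 4 had a window and 1, *EGR1*, a box. The windows of *ZYX*, *PDLIM7*, *IER2*, and *JUNB*, all of them called, held no box, and *MCL1* had no window. The boxes of 4 genes are shown because genes with the same element differed in the sign or the presence of a change. Each line gives the box in capitals with 10 bases on either side, in the direction of transcription.
ACTG1, chr17:81512874-81512903, minus strand: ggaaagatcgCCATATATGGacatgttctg
CNN2, chr19:1026509-1026538, plus strand: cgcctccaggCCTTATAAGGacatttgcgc
FLNA, chrX:154374709-154374738, minus strand: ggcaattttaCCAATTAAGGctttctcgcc
EGR1, chr5:138465386-138465415, plus strand: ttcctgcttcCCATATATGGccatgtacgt
*ACTG1* and *EGR1* carry a box of the same letters, and *ACTG1* rose while *EGR1* did not pass the test and was at 0.361 to 3.31 CPM in the 5 pools. The boxes lay 83 to 94 bases before the start in these 4 windows (GRCh38.p14), and *EGR1* had a second one 105 bases before it.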

How the data were processed

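The authors prepared QuantSeq 3′ libraries, trimmed adapters, aligned the single-end reads to GRCh38 with HISAT2 2.1.0, discarded multi-mapped reads with SAMtools 1.10, and deposited raw counts per Ensembl gene. The counting program, annotation release, and strand setting are not given in the sources used here. The sgCtrl pool 3 and sgMTSS1_4 libraries, which the authors excluded as outliers, were not analysed here. Libraries were grouped by their titles.

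In R 4.3.3, genes were filtered with filterByExpr of edgeR 4.0.16 (minimum count 10), TMM-normalized, and compared between the groups by the quasi-likelihood test, with condition as the only term and Benjamini-Hochberg adjustment over 14391 genes. Standard errors come from the fold change and its F statistic. CPM use TMM-scaled totals. DESeq2 1.42.0, limma-voom (limma 3.58.1), other normalizations and filters, thinning, a block, and leaving out each pool were alternatives. On simulated data, 66% of 200 genes changed 4-fold among 14391 were called, with 4 false calls. The simulated counts came from the same model that was then fitted, so this gives no error rate for the real calls. Replicates are pools of clones, so p-values measure the spread between pools. Counting floors cover counting error only.

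Positions are from GENCODE 44, promoters from RefSeq (GRCh38.p14). Members and lists were chosen with earlier results of these data known. A list of upstream regulators is not reported here. Named were the 6 members, *MTSS1*, the called and the most abundant genes of each list, the nearest profiles, genes within 100 kb of *SRF*, and the most changed genes with a CArG box. *FLNA*, *FOSL1*, *BTG2*, *ID3*, *SCAI*, *MRPL2*, and the sequences of *FLNA* and *EGR1* were chosen after their values were seen.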

Additional observations from a re-analysis of the deposited data

How the results depend on the processing

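The log2-fold change of *SRF* lay between 3.85 and 4.25 in 13 alternatives, and that of *ELK1* between 3.17 and 4.21 in 12, as a minimum of 10 counts in every library removed *ELK1*. With 1 pool left out, *ELK3* lay between −0.47 and 0.031 and changed sign without sgCtrl_1. Without sgMTSS1_1, sgMTSS1_3, sgMTSS1_2, and sgCtrl_1, the genes called numbered 111, 191, 347, and 1349. No cause of the changes below was tested unless the alternative itself tests more genes or fewer samples.

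The number of genes called (745) became 1286 with DESeq2 and 1374 with no filter on low counts, and 111 to 1349 with 1 pool left out. Of genes with a CArG box, 10 were called, 16 with no filter, and 3 to 16 with 1 pool left out. Near *SRF*, 1 of 17 tested genes was called, against 745 of all 14391. With limma-voom it was 2 of 17 (all genes, 634 of 14391), and with library totals alone 0 of 17 (800 of 14391). DESeq2 called 3 of 24 (1286 of 27328), and no filter gave 3 of 24 (1374 of 27328). For DESeq2 these totals are all genes of the table, and any without an adjusted p-value count as not called. With 10 counts in every library it was 3 of 15 (601 of 10734). Without any 1 knockout pool, 0 of 17 were called. Over the 4 lists, 7 genes were called, 10 with DESeq2, 9 with no filter, and 1 to 10 with 1 pool left out. The actin targets had 0 to 7 calls and the immediate early genes 1 to 3 with 1 pool left out. The partners and relatives had 1 call with DESeq2, 1 with library totals alone, and 1 with no filter.

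Pool and sgRNA numbers 1 and 2 occur in both groups but are only shared names, with a correlation across genes of 0.17 between the paired differences. With the replicate number as a block, 1094 of 14391 genes were called. These included 10 of 60 over the lists, 4 of 17 near *SRF*, and 1 of 9 partners. The log2-fold change of *SRF* was 3.85.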

Other observations

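The ETS motif CCGGAAGT was chosen for a look across the table after the level of *ELK1* was known. It occurred in a RefSeq window of 1005 of the 9688 matched tested genes, of which 4.08% were called higher and 1.09% lower in the knockout. Among the 8683 without it, these shares were 3.89% and 0.656%. The median log2-fold change was 0.044 with and −0.029 without the motif. Genes with the motif were also the more abundant, with a median of 29.2 CPM against 21.0 CPM.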
